A study of Zea mays with 4 samples.

Results

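The genes described here, 4 of the 45953 features counted, are named for the basal endosperm transfer layer (BETL) of the maize kernel: BETL3 (Zm00001d041671, basal endosperm transfer layer3), BAP2 (Zm00001d049576, basal layer antifungal protein2), BETL10 (Zm00001d042231, basal endosperm transfer layer10) and BETL9 (Zm00001d041822, basal endosperm transfer layer9). They were chosen by identifier as genes of that layer, with earlier results of these data known. All were followed in every cell of the series. The cells were protoplasts of wild type B73 endosperm, the nutritive tissue of the kernel, pooled from many kernels for each library. There were 3 libraries from kernels at 7 days after pollination (DAP) and 1 library at 6 DAP, none of them treated. Transcripts were counted by droplet capture at their 3′ ends, each molecule carrying a unique molecular identifier (UMI), so a count of UMIs does not scale with the length of the gene.

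Transfer cells line the base of the endosperm where the mother plant unloads sugars and amino acids, and their ingrown walls enlarge the membrane across which these pass. They also secrete many small cysteine-rich proteins, among them BETL3 and the antifungal BAP2, toward the maternal tissue, a border where nutrients are taken up and microbes could enter. MRP1 (Zm00001d010889, Myb related protein1) is a MYB-related transcription factor of these cells that activates promoters of BETL genes. A cell is called MRP1-positive here if it holds at least 1 MRP1 UMI, and MRP1-negative if it holds none.

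The study also targeted these transcripts with designed primers, for in situ hybridization of MRP1, BETL9 and BAP2 and for quantitative PCR of BAP2 and BETL10. They are shown because they identify the transcripts that these names stand for, 5′ to 3′ and without the polymerase promoter tail of the probe primers, and no base is capitalised because none is singled out. No sequence of BETL3 is shown.
BAP2 probe, forward: tgcagcagcttccaaggattat
BAP2 probe, reverse: tgatggttgacaactcgccac
BAP2 quantitative PCR, forward: aaagaaaaatgcctacgtgtgg
BAP2 quantitative PCR, reverse: tcgttttcgttttcggagttac
BETL10 quantitative PCR, forward: tcacatgcaccaaataaccatg
BETL10 quantitative PCR, reverse: cttttgactcatgggcattcaa
BETL9 probe, forward: atggcaaaactactcttgggt
BETL9 probe, reverse: gaggaactgtataactcccgcact
MRP1 probe, forward: tgaggcttgttcagggacaac
MRP1 probe, reverse: tggctctcctccgtcgct

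After filtering, 4385 to 4871 cells per library remained at 7 DAP and 3141 at 6 DAP, 17212 in all. The median depth of these cells was 3979 to 5659 UMIs at 7 DAP and 1814 at 6 DAP. MRP1-positive cells numbered 278, 349 and 339 in replicates 1, 2 and 3 of 7 DAP and 150 at 6 DAP. These cells were also the deeper ones, with medians of 8416.5, 10947 and 11867 UMIs at 7 DAP and 2417 at 6 DAP, against 3819 to 5388.5 and 1787 for MRP1-negative cells. With every cell thinned to 1000 UMIs, 1.97% to 2.51% of cells were MRP1-positive at 7 DAP and 2.80% at 6 DAP. The 6 DAP library has no replicate, so no difference between ages was tested. Pairs of libraries shared 4 to 8 cell barcodes, and no library was a copy of another.

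The first comparison asked how strongly the 4 genes marked transfer cells. All 4 were 6.85 to 15.4 times higher in MRP1-positive than in MRP1-negative cells of each library, and at 7 DAP they ranked in the order BETL3, BAP2, BETL10, BETL9 within MRP1-positive cells. Levels are CPM, the UMIs of a gene scaled to 1000000 UMIs of the summed cells. BETL3 reached 6782, 6187 and 6449 CPM in MRP1-positive cells of 7 DAP replicates 1, 2 and 3, against 528, 443 and 418 CPM in MRP1-negative cells. BAP2 reached 5195, 5239 and 5152 CPM in MRP1-positive cells, against 506, 446 and 426 CPM in MRP1-negative cells. The lowest MRP1-positive value of either gene was thus far above its highest MRP1-negative value.

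BETL10 had 2290, 2085 and 2319 CPM in MRP1-positive cells of 7 DAP, against 248, 214 and 235 CPM in MRP1-negative cells. BETL9, the least abundant, had 1836, 1458 and 1627 CPM in MRP1-positive cells, against 174, 142 and 149 CPM in MRP1-negative cells. Again the groups did not overlap. The MRP1-positive means were 6472 ± 299, 5195 ± 43.7, 2231 ± 128 and 1640 ± 189 CPM for BETL3, BAP2, BETL10 and BETL9 (SD, n = 3 libraries), so neighbours in this order were separated by more than their spread. In MRP1-negative cells BETL3 (463 ± 57.5 CPM) and BAP2 (459 ± 41.4 CPM) did not differ beyond theirs.

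**Figure D1:**
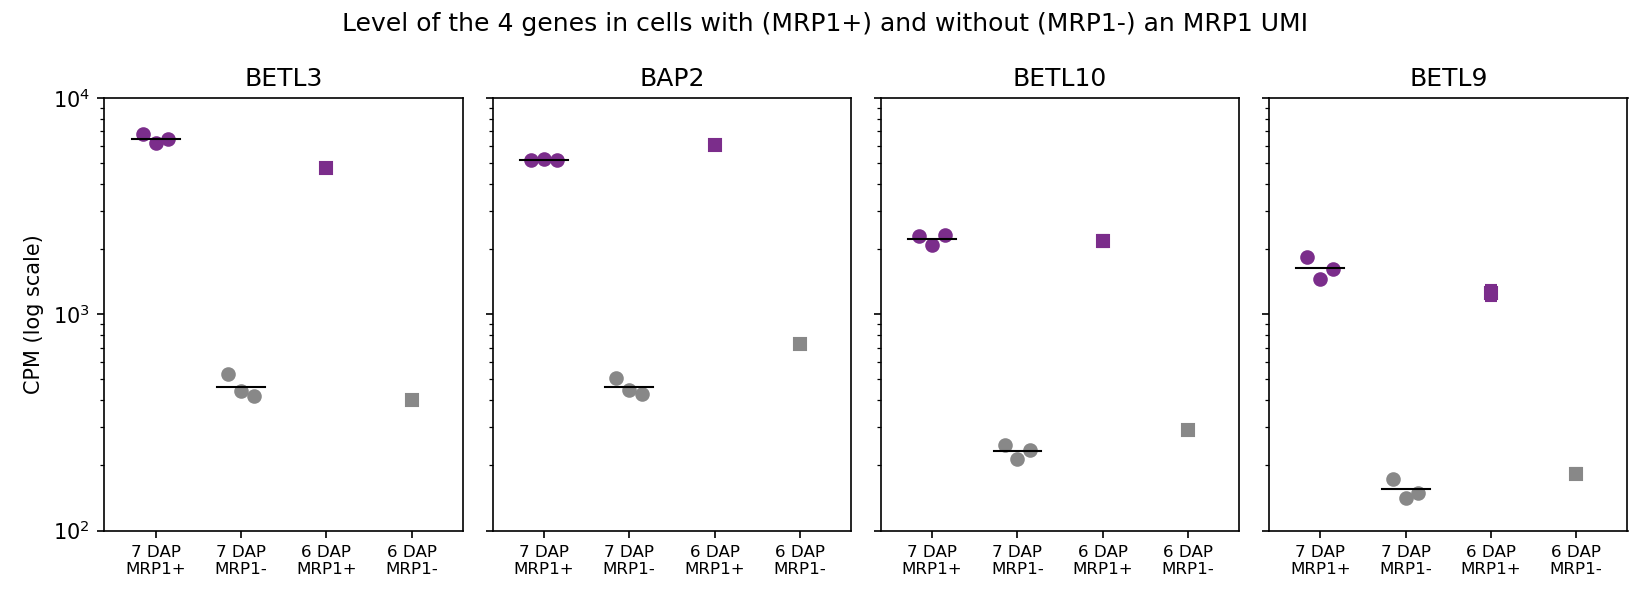
Level of each gene in CPM (logarithmic axis) in MRP1-positive (MRP1+) and MRP1-negative (MRP1-) cells, at 7 DAP (a point for each of 3 libraries, bar at the mean) and at 6 DAP (1 library, with the exact 95% Poisson interval of its count, mostly hidden by the square). In every panel the MRP1+ points lie far above the MRP1- points, and BETL3 is above BAP2 in MRP1+ cells at 7 DAP but below it at 6 DAP.

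In edgeR's quasi-likelihood test on the 6 sums of 7 DAP, with library as a block, all 4 genes were higher in MRP1-positive cells, in 3 of 3 libraries each. The log2 fold changes were 4.29 for BETL3 (SE 0.054, adjusted p = 6.7e-28), 3.98 for BAP2 (SE 0.052, adjusted p = 1.1e-27), 3.74 for BETL10 (SE 0.051, adjusted p = 1.7e-27) and 3.88 for BETL9 (SE 0.053, adjusted p = 1.8e-27). Of the 19139 genes tested apart from MRP1, 26.4% were called higher and 26.1% lower, so a call alone sets no gene apart here. The study named the transfer layer in these libraries by markers that include MRP1 and BETL9. The direction of these known transfer-layer genes is therefore not independent evidence. By fold change the 4 genes ranked 102, 150, 187 and 165 among the 19140 genes fitted, in the order just given. These folds rest on a scaling that centres most genes: the median over all genes was -0.05 with it and -0.53 when sums were scaled by total UMIs alone. On totals the members came to 3.81, 3.50, 3.26 and 3.40 and kept their calls, while 2099 genes were called higher and 10837 lower.

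Other transfer-layer genes moved the same way. All 26 of a list of 26 further BETL genes were called higher in MRP1-positive cells, with a median log2 fold change of 3.90 against -0.05 over all genes. The study chose several of its genes on these libraries, so the list is not independent evidence of its direction. Its 6 largest changes were in MN1 (6.74, a cell wall invertase that splits incoming sucrose), the MYB-related factors MYBR19 (6.36), MYBR33 (5.70) and MYBR29 (4.94), the ethylene response factor EREB150 (5.85) and TCRR1 (5.32, a response regulator of transfer cells). The 4 members lay near the middle of that list in fold change. All 23 genes of a list of MRP1 targets that the study compiled from an earlier report, which holds BETL9, BETL10 and BAP2 but not BETL3, were also higher, with a median of 3.90. Markers of other cell types were lower in MRP1-positive cells for 3 of 3 tested aleurone genes, 4 of 4 starchy endosperm genes and 6 of 6 genes of the embryo-surrounding region. Of 2 genes of the endosperm adjacent to the scutellum, 1 was lower and 1 was not called. Their summed levels were not zero: at 7 DAP the aleurone markers gave 15649 to 18263 CPM in MRP1-positive and 48780 to 50311 CPM in MRP1-negative cells, the starchy endosperm markers 90.4 to 191 and 583 to 705 CPM, and those of the embryo-surrounding region 47.2 to 537 and 1741 to 2164 CPM. At 6 DAP the aleurone markers gave 1982 CPM in MRP1-positive and 11301 CPM in MRP1-negative cells. Of the listed aleurone markers, Zm00001d024210 had 0 UMIs in both groups of all 4 libraries and marks nothing here. The part of such mixing in the levels of the 4 genes was not tested.

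At 6 DAP the same contrast held in 1 library, with no test. BETL3 had 4764 CPM in MRP1-positive cells (exact 95% Poisson interval 4555 to 4981) and 401 CPM in MRP1-negative cells. BAP2 had 6060 CPM (5823 to 6304) and 727 CPM. BETL10 had 2188 CPM (2047 to 2337) and 291 CPM, and BETL9 had 1256 CPM (1150 to 1370) and 183 CPM. BAP2 therefore headed the order at 6 DAP, ahead of BETL3, and the intervals of these neighbours did not overlap. These intervals cover counting error only. MRP1-positive over MRP1-negative folds were 12.9, 14.0 and 15.4 for BETL3 in the libraries of 7 DAP and 11.9 at 6 DAP. They were 10.3, 11.8 and 12.1, and 8.34, for BAP2. For BETL10 they were 9.22, 9.76 and 9.87, and 7.52. For BETL9 they were 10.6, 10.3 and 10.9, and 6.85. The fold at 6 DAP was thus below that of every 7 DAP library for each gene. The 6 DAP cells were the shallowest, and the part of depth in this was not tested.

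To set cells with and without an MRP1 UMI against each other within the transfer layer, 15 other BETL genes were taken as a panel that holds neither the 4 genes nor MRP1, and cells in which the panel took at least 5% of UMIs were called panel cells. There were 448, 478 and 431 of them at 7 DAP, of which 39.5%, 42.3% and 48.0% were MRP1-positive, and 361 at 6 DAP, of which 27.1% were. Within panel cells all 4 genes were higher where MRP1 was detected at 7 DAP, BETL3 and BAP2 by more than BETL10 and BETL9. BETL3 had 9221, 8726 and 8926 CPM in MRP1-positive panel cells of 7 DAP, against 5780, 5055 and 4830 CPM in MRP1-negative panel cells. BAP2 had 6798, 6986 and 6824 CPM in the MRP1-positive ones, against 4881, 4665 and 4497 CPM in the MRP1-negative ones.

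For BETL10 the values were 3134, 2956 and 3185 CPM in MRP1-positive panel cells, against 2757, 2504 and 2828 CPM in MRP1-negative panel cells. For BETL9 they were 2585, 2169 and 2363 CPM in MRP1-positive panel cells, against 2093, 1884 and 1998 CPM in MRP1-negative panel cells. In both genes the groups did not overlap, but the gap was small, and the share of all genes that separate so was not counted. The edgeR test with library as a block called all 4 higher, with log2 fold changes of 0.82 for BETL3 (SE 0.050, adjusted p = 1.2e-24), 0.59 for BAP2 (SE 0.050, adjusted p = 5.3e-17), 0.24 for BETL10 (SE 0.052, adjusted p = 0.00035) and 0.29 for BETL9 (SE 0.054, adjusted p = 2.2e-05), where 8.21% of 10919 genes were called higher and 7.83% lower. Without the library block the calls of BETL9 (adjusted p = 0.098) and BETL10 (adjusted p = 0.21) were lost. With a panel share of at least 10% the change in BETL9 was -0.081 (adjusted p = 0.52) and that in BETL10 0.039 (adjusted p = 0.79), while BETL3 (0.73) and BAP2 (0.51) kept their calls.

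**Figure D2:**
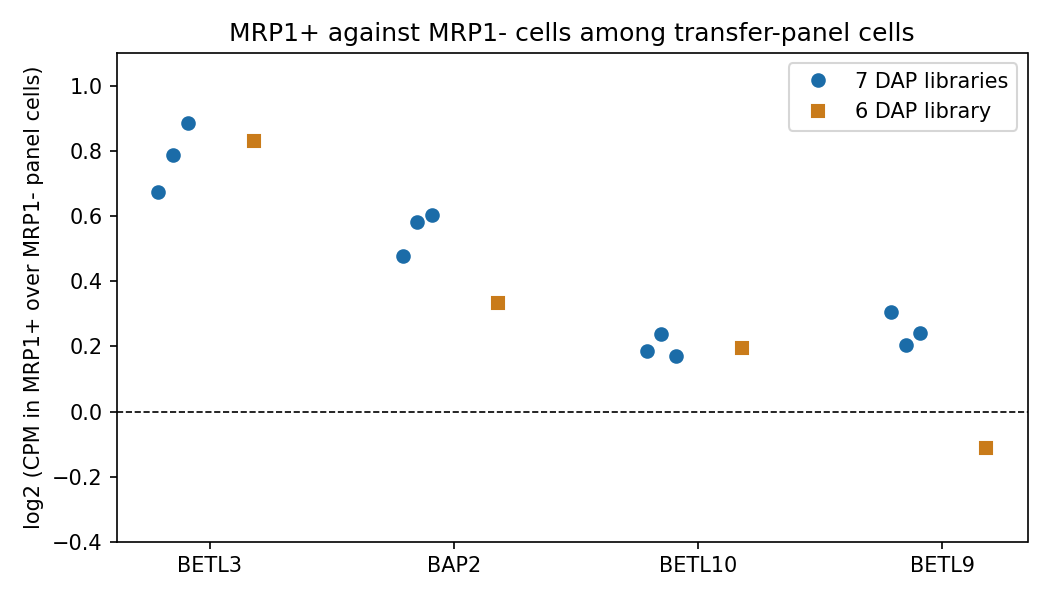
Log2 ratio of the level (CPM) in MRP1-positive over MRP1-negative panel cells for each gene, with a circle for each of the 3 libraries of 7 DAP and a square for the 6 DAP library; the dashed line marks no difference. BETL3 lies between 0.67 and 0.89 in all 4 libraries, BAP2 between 0.33 and 0.60, BETL10 between 0.17 and 0.24, and BETL9 between 0.20 and 0.31 at 7 DAP but at -0.11 at 6 DAP.

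At 6 DAP the log2 ratio within panel cells was 0.83 for BETL3, 0.33 for BAP2, 0.19 for BETL10 and -0.11 for BETL9. The BETL9 value turned on 1 MRP1-negative cell that held 147 of 1073 BETL9 UMIs. With the top cell of each sum left out, an alternative chosen after seeing the data, the BETL9 ratio was 0.02 at 6 DAP and 0.34, 0.29 and 0.43 at 7 DAP. Among MRP1-negative panel cells the top cell held 4.66% to 15.2% of BETL9 UMIs, a larger part than for any of the other 3 genes in each of the 4 libraries. In replicate 3 of 7 DAP 1 MRP1-negative panel cell held 585 of 3860 BETL9 UMIs, against at most 4.52% for the top cell of the other genes. The MRP1-positive panel cells were deeper, with medians of 9746 to 13301 UMIs at 7 DAP and 2416 at 6 DAP, against 4970 to 7630 and 1798 for MRP1-negative ones. The median panel share was 10.3%, 8.498% and 10.7% of UMIs in MRP1-positive and 8.82%, 8.90% and 8.85% in MRP1-negative panel cells of 7 DAP, and 8.81% and 8.23% at 6 DAP, so it was higher with MRP1 in 3 of 4 libraries. Starchy endosperm markers summed to 58.7 to 93.3 CPM in the MRP1-positive and 232 to 288 CPM in the MRP1-negative panel cells of 7 DAP, and 2 of 2 tested were called lower. Embryo-surrounding region markers summed to 172, 20.5 and 95.8 CPM in the MRP1-positive and 24.7, 25.8 and 35.2 CPM in the MRP1-negative ones, and MEG14, the 1 gene of that list tested, was called higher (1.91). Aleurone markers summed to 11273 to 17019 CPM in the MRP1-positive and 11539 to 18516 CPM in the MRP1-negative ones, and 1 of 3 tested, SBT1, was called higher (0.58). The part of depth, panel share and these transcripts in the result was not tested. Of the 26 other BETL genes 23 were called higher, Zm00001d052759 lower (-0.66), and Zm00001d053785 (-0.03) and MEG13 (0.12) were not called; the median was 0.85 against -0.00 over all genes. Of the 23 MRP1 targets 17 were called higher and 2 lower, with a median of 0.42.

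The next question was in what proportions the 4 transcripts occurred. In MRP1-positive cells of 7 DAP, of all UMIs of the 4 genes, BETL3 took 41.6% ± 0.42, BAP2 33.5% ± 1.40, BETL10 14.4% ± 0.51 and BETL9 10.5% ± 0.83 (SD, n = 3 libraries). At 6 DAP the shares were 33.4% for BETL3, 42.5% for BAP2, 15.3% for BETL10 and 8.80% for BETL9. In percentage points the age difference was largest for BETL3 and BAP2, at 8.25 and -9.004 between 7 DAP and 6 DAP. It was 1.73 for BETL9 and -0.98 for BETL10. Percentage points give more weight to abundant genes. Relative to its own share at 6 DAP, BETL9 (8.80% and 10.5%) differed nearly as much as BETL3 (33.4% and 41.6%). The BETL9 difference did not hold within cells. In MRP1-positive cells with at least 10 UMIs of the 4 genes, its mean share was 8.39% at 6 DAP and 8.95%, 7.58% and 8.25% at 7 DAP. The mean BETL3 share was 31.6% at 6 DAP and 41.9%, 40.8% and 39.7% at 7 DAP.

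Counted as a ratio, MRP1-positive cells held 1.31, 1.18 and 1.25 BETL3 UMIs per BAP2 UMI in 7 DAP replicates 1, 2 and 3, and 0.786 at 6 DAP. The counts behind these ratios were 17085, 25299 and 27546 BETL3 UMIs and 13087, 21424 and 22006 BAP2 UMIs at 7 DAP, and 1938 BETL3 and 2465 BAP2 UMIs at 6 DAP. In MRP1-negative cells the ratio was 1.04, 0.993 and 0.980 at 7 DAP and 0.551 at 6 DAP. Panel cells gave 1.29, 1.19 and 1.24 at 7 DAP and 0.676 at 6 DAP. In each of these groups the 6 DAP library lay below all 3 libraries of 7 DAP, and in each library the ratio was higher in MRP1-positive than in MRP1-negative cells. With 3 libraries an exact sign-flip test of that last difference cannot go below p = 0.25.

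**Figure D3:**
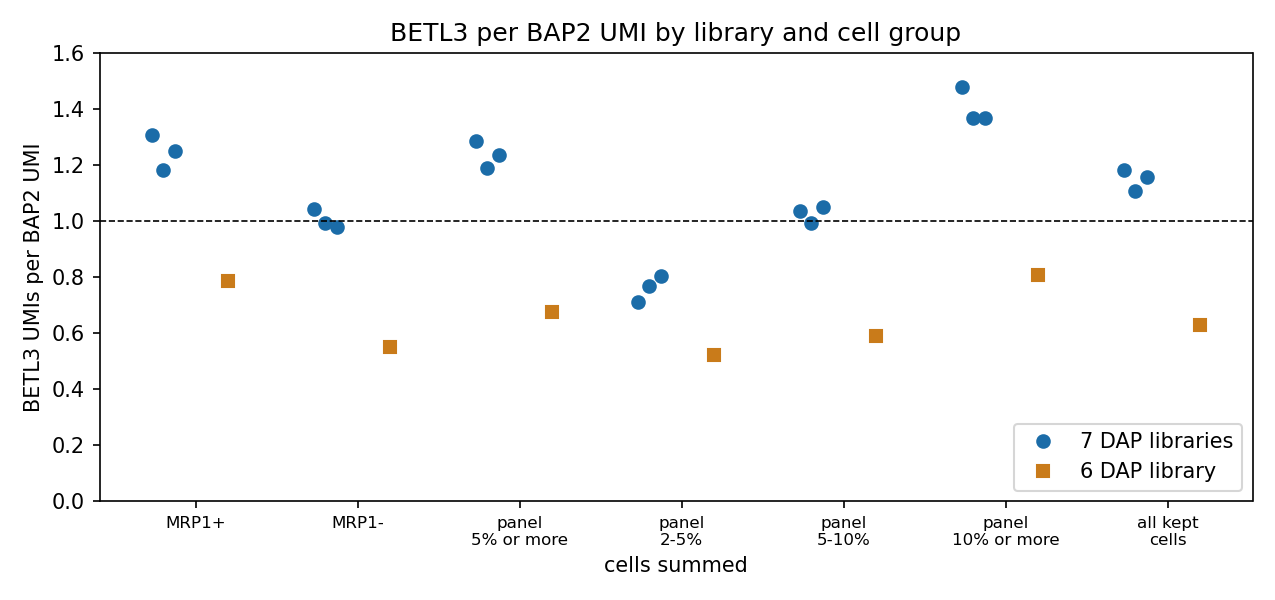
BETL3 UMIs per BAP2 UMI (linear axis from 0, dashed line at 1) in groups of cells set along the horizontal axis, with a circle for each of the 3 libraries of 7 DAP and a square for the 6 DAP library. The 6 DAP square lies below the 7 DAP circles in every group, at 0.786 against 1.18 to 1.31 in MRP1-positive cells, and across the 3 bins of panel share the ratio is largest where the panel takes at least 10% of UMIs.

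The shift between BETL3 and BAP2 was also seen cell by cell. Among MRP1-positive cells with at least 10 UMIs of the 4 genes, BETL3 was the most abundant of them in 147 of 239, 157 of 304 and 156 of 297 cells of 7 DAP (61.5%, 51.6% and 52.5%), and in 31 of 127 cells at 6 DAP (24.4%). BAP2 led in 35.1%, 44.4% and 41.4% of the cells of 7 DAP and in 68.5% at 6 DAP. BETL9 and BETL10 led in few: BETL9 in 1 or 2 cells per library of 7 DAP and 0 at 6 DAP, and BETL10 in 1 to 13 cells at 7 DAP and 2 at 6 DAP.

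As levels rather than shares, none of the 4 genes met a size rule of a 2-fold gap between the 6 DAP library and every 7 DAP library, which 3.86% of 8409 genes met as higher and 6.54% as lower at 7 DAP in MRP1-positive cells. The log2 ratios of 7 DAP over 6 DAP in these cells were 0.44 for BETL3, 0.38 for BETL9, 0.03 for BETL10 and -0.22 for BAP2, beside a median of -0.29 over all genes. The 6 DAP level lay below every 7 DAP library for BETL3 and BETL9, as for 27.1% of all genes. It lay above every 7 DAP library for BAP2, as for 58.1% of genes, and inside their range for BETL10. In all kept cells the ratios were 0.83 for BETL3, 0.41 for BETL9, 0.21 for BETL10 and -0.04 for BAP2, beside a median of -0.15. There the size rule was met by 1.34% of genes as higher and 0.835% as lower at 7 DAP and by none of the 4, and the 6 DAP level lay below every 7 DAP library for BETL3, BETL9 and BETL10, as for 30.2% of genes, and inside their range for BAP2, while 56.5% of genes lay above. In panel cells the ratios were 0.71 for BETL3, 0.27 for BETL9, 0.083 for BETL10 and -0.16 for BAP2, beside a median of -0.30. The 6 DAP level in panel cells lay below every 7 DAP library for BETL3, BETL9 and, by a small margin, BETL10 (23.6% of genes) and above for BAP2 (61.3%), with the size rule met by 1.63% of genes as higher, 4.04% as lower and none of the 4. BAP2's direction depends on the scaling: with TMM factors its ratio was 0.16 in MRP1-positive cells and 0.11 in all kept cells, beside medians of 0.11 and 0.00. BETL3 kept its direction in both groups of cells. Age, library and depth cannot be told apart with 1 library at 6 DAP, and a level over all cells cannot tell fewer transfer cells from less transcript per cell.

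The division of these transcripts varied with the panel share of the cells. Kept cells were ordered by their panel share, and the 4 genes were compared between cells at 2 to 5%, 5 to 10% and at least 10%. The lowest bin lies below the 5% that defines panel cells, so its cells need not be transfer cells. BETL9 gained most along this series. Its share of the 4 genes at 7 DAP was 5.02% ± 0.47, 8.34% ± 0.53 and 14.3% ± 0.34 in the 3 bins (SD, n = 3), and 6.12%, 9.91% and 13.9% at 6 DAP. Its level was 290, 273 and 247 CPM in the lowest of these bins in the libraries of 7 DAP, and 3615, 3415 and 3325 CPM in the highest. That is a factor of 12.5, 12.5 and 13.5, and of 7.01 at 6 DAP.

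BAP2 went the other way in share, at 45.6% ± 1.51, 37.3% ± 0.86 and 29.1% ± 0.95 in the 3 bins of 7 DAP, and 51.2%, 46.2% and 37.3% at 6 DAP. BETL3's share was 34.7% ± 0.98, 38.3% ± 0.20 and 40.8% ± 0.71 at 7 DAP, and 26.8%, 27.2% and 30.1% at 6 DAP. BETL10 stayed nearly level, at 14.7% ± 1.00, 16.1% ± 0.57 and 15.8% ± 0.58 at 7 DAP, and 15.9%, 16.7% and 18.8% at 6 DAP. BETL9 and BETL10 thus parted: BETL9 UMIs per BETL10 UMI were 0.345 ± 0.056, 0.520 ± 0.043 and 0.902 ± 0.032 in the 3 bins of 7 DAP, and 0.385, 0.595 and 0.739 at 6 DAP. The higher bins also held deeper cells, at a median of 3537 to 8360 UMIs in the lowest and 7468.5 to 11406 UMIs in the highest bin of 7 DAP, and of 1879 and 2082.5 UMIs at 6 DAP. The part of depth in these shares was not tested.

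**Figure D4:**
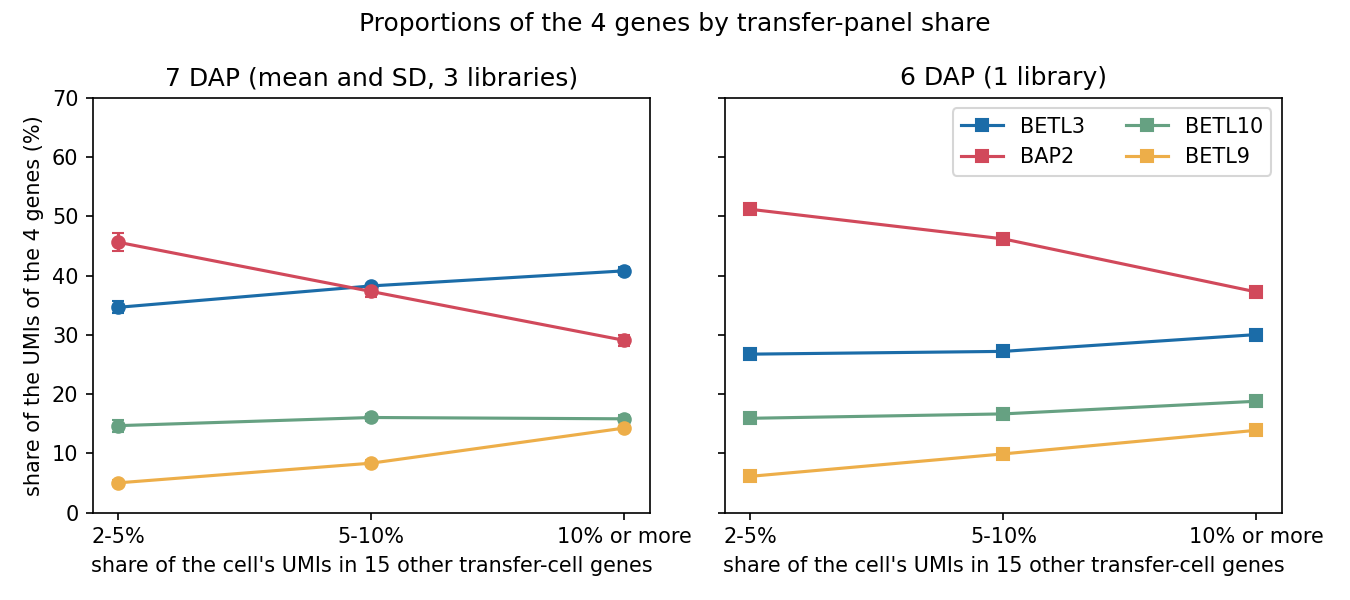
Share of each gene in the summed UMIs of the 4 genes (percent) in cells of increasing panel share, at 7 DAP (mean and SD of 3 libraries) and at 6 DAP (1 library). BETL9 runs from 5.02% to 14.3% and BAP2 from 45.6% to 29.1% across the bins of 7 DAP, BETL10 is nearly level, and BAP2 is the largest share in all 3 bins of 6 DAP.

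MRP1-positive cells outside the panel, 380 at 7 DAP and 52 at 6 DAP, resembled the low bin in BETL9. The bins were set without regard to MRP1, and the low bin holds some of these same cells. The likeness is therefore not independent evidence. BETL9 had 196 ± 29.7 CPM in the MRP1-positive cells outside the panel (SD, n = 3) and 446 CPM at 6 DAP, with shares of 4.63% ± 0.26 and 6.82%. Cells with more MRP1 UMIs had more of each gene: BETL3 averaged 4229 ± 125, 6218 ± 713 and 8916 ± 1432 CPM in cells of 7 DAP with 1, 2 to 4 and at least 5 MRP1 UMIs, and BETL9 922 ± 186, 1616 ± 328 and 2290 ± 289 CPM (SD, n = 3). BAP2 averaged 3367 ± 261, 4980 ± 426 and 7090 ± 397 CPM in the same classes, and BETL10 1369 ± 90.6, 2222 ± 166 and 3004 ± 320 CPM. BETL3 per BAP2 was 1.26 ± 0.13, 1.25 ± 0.12 and 1.26 ± 0.16 in the 3 classes of 7 DAP. BETL9 per BAP2 was 0.277 ± 0.076, 0.322 ± 0.037 and 0.323 ± 0.040, and BETL9 per BETL10 0.672 ± 0.11, 0.723 ± 0.094 and 0.761 ± 0.018, each step within the spread between libraries. At 6 DAP BETL9 per BETL10 was 0.515, 0.608 and 0.711, the last over 4 cells. The classes also differed in depth, with median UMIs of 5936 to 8423, 9520 to 11809 and 11208 to 17543, and the part of depth was not tested.

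Co-detection was compared after thinning each cell to 1000 UMIs, since a deeper cell shows more genes. MRP1 status was still read at the full depth of each cell. Thinning thus did not remove depth from the choice of cells, and its part in the difference between ages was not tested. All 4 genes were then found together in 41.7% ± 2.39 of MRP1-positive cells at 7 DAP (SD, n = 3) and in 48.0% at 6 DAP (72 of 150 cells, Clopper-Pearson 95% interval 39.8 to 56.3). None of the 4 was found in 9.03% ± 0.28 of these cells at 7 DAP and 6.67% at 6 DAP. Exactly 3 were found in 27.2% ± 1.89 and 26.0%, 2 in 13.8% ± 1.73 and 12.7%, and 1 in 8.30% ± 1.54 and 6.67%. The 7 DAP libraries had 42.8%, 39.0% and 43.4% with all 4, each below the 6 DAP value, and the lowest, replicate 2, lay just below the 6 DAP interval. In MRP1-positive panel cells the 6 DAP value, 64.3%, lay among those of 7 DAP, 62.1%, 61.4% and 65.7%. At their own depth, 75.2% ± 2.19 of MRP1-positive cells at 7 DAP and 68.0% at 6 DAP held all 4.

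In MRP1-negative cells the picture was reversed, with none of the 4 genes in 83.8% ± 3.55 of thinned cells at 7 DAP and 79.5% at 6 DAP, and all 4 in 2.99% ± 0.74 and 4.91%. Of panel cells without an MRP1 UMI, 40.9% ± 5.42 held all 4 genes at 7 DAP and 48.3% at 6 DAP, against 63.1% ± 2.30 and 64.3% of panel cells with one. Panel cells were selected by other BETL genes, so this is no independent evidence of what these cells are.

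**Figure D5:**
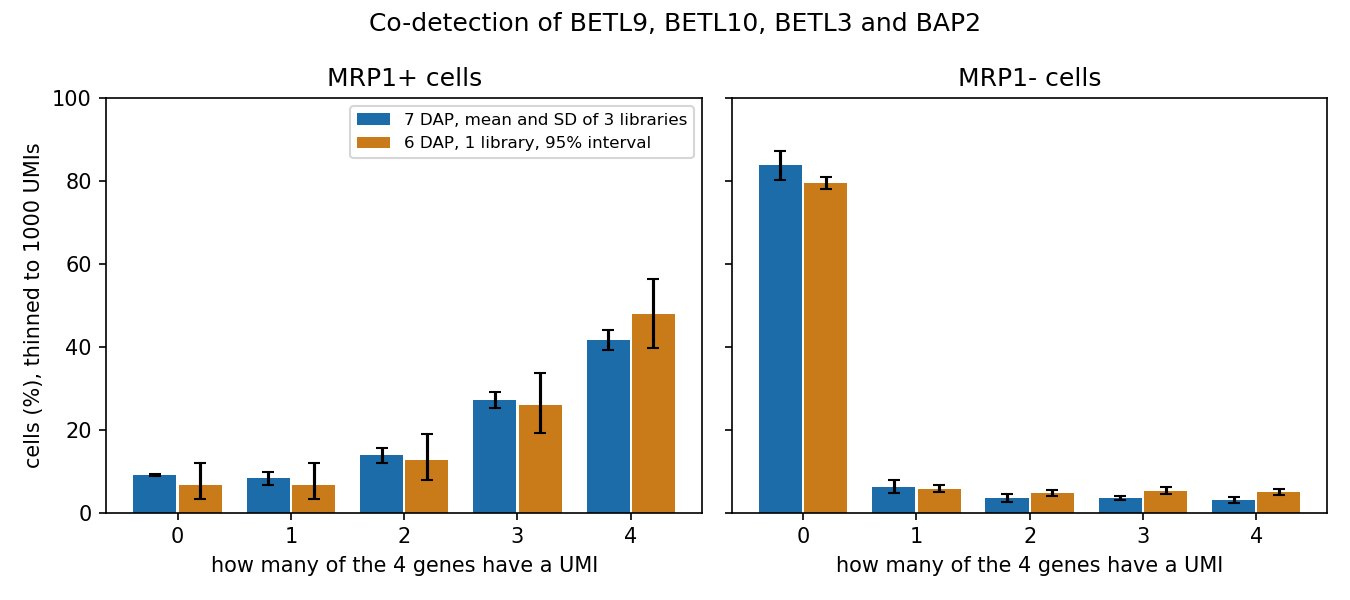
Percent of cells, after thinning each to 1000 UMIs, in which 0, 1, 2, 3 or 4 of the genes had a UMI, for MRP1-positive (MRP1+) and MRP1-negative (MRP1-) cells. Bars give the mean of 3 libraries with their SD at 7 DAP and 1 library with its Clopper-Pearson 95% interval at 6 DAP; the highest bars are at 4 genes in MRP1+ cells (41.7% and 48.0%) and at 0 genes in MRP1- cells (83.8% and 79.5%).

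The genes followed their abundance in how often they were seen. In thinned MRP1-positive cells BAP2 was detected in 84.4% ± 1.17 at 7 DAP and 88.7% at 6 DAP, BETL3 in 83.5% ± 0.75 and 84.0%, BETL10 in 66.4% ± 3.59 and 68.0%, and BETL9 in 50.01% ± 1.69 and 61.3%. The BETL9 share at 6 DAP lay above all 3 libraries of 7 DAP although its CPM lay below them. No order by age is read from it. Of thinned MRP1-positive cells with BETL9, 98.6%, 97.02% and 97.1% also held BAP2 in the libraries of 7 DAP and 96.7% at 6 DAP, whereas of those with BAP2, 61.0%, 54.7% and 57.8% held BETL9 at 7 DAP and 66.9% at 6 DAP.

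The 4 genes were also counted in cells with markers of other types. In droplet data free RNA can give UMIs to cells that do not express a gene, and its part here was not estimated. Among MRP1-negative cells carrying aleurone markers, 4858 at 7 DAP and 372 at 6 DAP, BETL3 had 127 ± 15.3 CPM (SD, n = 3) and 13.0 CPM, BAP2 94.7 ± 21.8 and 27.8 CPM, BETL10 43.9 ± 9.27 and 19.99 CPM, and BETL9 19.9 ± 5.86 and 13.9 CPM. These UMIs were unevenly spread: the 1464, 1790 and 1604 such cells of 7 DAP held 1328, 2445 and 1788 BETL3 UMIs, of which the 1400, 1707 and 1544 cells with a panel share under 0.5% held 162, 141 and 95. In these, a group chosen after seeing the data, BETL3 had 10.3 CPM at 7 DAP and 6.17 CPM at 6 DAP, BAP2 7.33 and 11.5 CPM, BETL10 3.22 and 5.29 CPM, and BETL9 2.59 and 3.52 CPM. At 6 DAP these values rest on few UMIs, 7 for BETL3 and 13 for BAP2. All MRP1-negative aleurone-marker cells of 6 DAP held 15 BETL3 and 32 BAP2 UMIs. No contrast between ages is read from them. MRP1-negative cells carrying FL3 (a starchy endosperm gene) with a panel share under 0.5% were similarly low, at 13.1 and 10.7 CPM for BETL3 and 12.6 and 32.2 CPM for BAP2. Both groups were chosen by a low share of other BETL genes, with which the 4 genes rise. Low levels in them are therefore not independent evidence.

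A few cells carried FL3 together with a panel share of at least 5%, 271 at 7 DAP and 46 at 6 DAP. Their BETL9 level was 2784 ± 69.96 CPM at 7 DAP and 2805 CPM at 6 DAP, and BETL10 had 2791 ± 268 and 2361 CPM, so that BETL9 and BETL10 were about equal there (1.00 ± 0.068 BETL9 UMIs per BETL10 UMI at 7 DAP, 1.19 at 6 DAP), against 0.734 ± 0.058 and 0.574 in MRP1-positive cells. BETL3 had 5560 ± 711 and 1660 CPM, and BAP2 4990 ± 520 and 7269 CPM. Among MRP1-negative cells with FL3 the largest BETL9 count in a cell was 147 UMIs at 6 DAP. It was 366 and 585 UMIs in replicates 2 and 3 of 7 DAP. The same counts were the largest among MRP1-negative panel cells. The levels and ratios of this group without such cells were not computed. Droplets with 2 cells were not called, and their part in this group was not tested. Its median depth was 5887 to 9562 UMIs at 7 DAP and 2008.5 at 6 DAP.

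Most UMIs of the 4 genes came from panel cells, though these were few. Panel cells held 87.5%, 85.3% and 87.9% of BETL3 UMIs at 7 DAP and 79.8% at 6 DAP, against 13.3%, 13.4% and 14.7%, and 11.7%, of all UMIs. BETL9 was the most concentrated, at 92.2%, 92.6% and 94.5% at 7 DAP and 87.1% at 6 DAP. BAP2 was the least so, at 80.4%, 79.3% and 82.3%, and 74.4%. BETL10 had 87.1%, 85.5% and 87.6%, and 80.4%. MRP1-positive cells held a smaller part, for example 58.4%, 64.6% and 70.1% of BETL3 UMIs at 7 DAP and 41.9% at 6 DAP. At 6 DAP most BETL3 UMIs therefore lay in cells without an MRP1 UMI.

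Across kept cells thinned to 1000 UMIs, BETL3 and BAP2 were the most alike of the 4 genes, with a mean Pearson correlation of log counts of 0.80 over the 4 libraries. BETL10 correlated with BAP2 at 0.74 and with BETL3 at 0.72, BETL9 with each of the other genes at about 0.65, and MRP1 with the 4 genes at 0.26 to 0.34. Cells of a library share its free RNA and the division into transfer and other cells, and these values are descriptions over 3141 to 4871 cells per library. Within MRP1-positive cells BETL3 and BAP2 correlated at 0.65 and MRP1 with the 4 genes at 0.08 to 0.15.

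Of 7675 genes compared across kept cells, those most like BETL3 were Zm00001d053108 (0.87), Zm00001d007447 (0.85), GPM832 (0.83), GPM549 (0.82) and Zm00001d053113 (0.82). For BAP2 they were Zm00001d053785 (0.84), Zm00001d007447 (0.80), Zm00001d053108 (0.80), BETL3 (0.80) and Zm00001d042229 (0.78). BETL10 and BETL9 had the same nearest gene, Zm00001d042229, at 0.79 and 0.73. BETL10 was next closest to Zm00001d053785 (0.75), BAP2 (0.74), GPM833 (0.74) and Zm00001d053108 (0.73), and BETL9 to Zm00001d042226 (0.69), MEG13 (0.68), GPM833 (0.68) and BAP3A (0.67). Within MRP1-positive cells, where 1498 genes were compared, Zm00001d053785 was nearest to BETL3 (0.74) and BAP2 (0.68), and Zm00001d042229 again to BETL10 (0.61) and BETL9 (0.64). The next in order there were Zm00001d053108 (0.74), Zm00001d053113 (0.70), Zm00001d007447 (0.67) and Zm00001d052759 (0.67) for BETL3. For BAP2 they were BETL3 (0.65), Zm00001d042229 (0.62), Zm00001d053108 (0.61) and BAP3A (0.61). For BETL10 they were Zm00001d053113 (0.57), Zm00001d053785 (0.57), BETL3 (0.55) and Zm00001d019453 (0.55), and for BETL9 Zm00001d019453 (0.60), MEG13 (0.58), Zm00001d042226 (0.57) and MEG3 (0.56). The splitting of reads among close paralogs by the counting was not examined here, which leaves BAP2, BAP3A and the MEG genes uncertain in that respect.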

How the data were processed

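Single-cell RNA sequencing of endosperm protoplasts gave 3 libraries of 7 DAP and 1 of 6 DAP, grouped by their sample titles. The authors deposited unnormalised UMI counts for each gene in each barcode, from Cell Ranger (version 4.0.0 per the file headers); the reference build of these counts is not given in the sources used here. Every deposited barcode had at least 500 UMIs, and library totals were 26756925, 36740377 and 33751416 UMIs at 7 DAP and 8248575 at 6 DAP.

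Cells were kept with 500 to 7500 genes, at least 1000 UMIs and a ratio of log genes to log UMIs of at least 0.8, a reading of the study's complexity filter, whose printed form cannot reach its limit. No doublet caller was run. Leaving out the top 5% of cells by UMIs was an alternative, but it cannot stand in for one. MRP1-positive cells were the deeper ones, so this cut also takes out transfer cells. UMIs were summed per library and MRP1 status and tested with edgeR 4.0.16 (R 4.3.3; TMM, filterByExpr, library as block, Benjamini-Hochberg over all genes tested, call at adjusted p under 0.05; the SE is the absolute log2 fold change over the square root of F), with DESeq2 1.42.0 as an alternative. MRP1 chose the cells and was not tested. The libraries are the replicates, and the study calls the 3 of 7 DAP biological replicates. The p-values set the contrast within libraries against how much it varied from library to library. That variation was estimated with information shared over all genes tested, not from each gene alone. The block pairs the 2 sums of 1 library, which come from the same suspension. Tests were checked on simulated counts. Intervals are exact (Poisson for levels, Clopper-Pearson for shares) at 95%. Thinning drew 1000 UMIs per cell with a fixed seed (numpy 2.4.6). Symbols were taken from the feature table and the study. Aleurone-marker cells held at least 3 UMIs of VPP7, SBT1 and Zm00001d024210 together, the last of which had 0 UMIs.

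Genes named beyond the members were the 6 largest changes of the BETL list, its genes that failed the test, and the 5 genes most correlated with each member; FL3 served as a label of starchy endosperm cells. The members and lists were chosen with earlier results of these data known. Alternatives covered scaling, test, filters, libraries, the definition of transfer cells and thinning.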

Additional observations from a re-analysis of the deposited data

Results flagged for a closer look

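Within panel cells BETL9 ran in opposite directions at the 2 ages, with a log2 ratio of MRP1-positive over MRP1-negative cells of 0.31, 0.20 and 0.24 in the libraries of 7 DAP and -0.11 at 6 DAP. The difference between ages was not tested. With the top cell of each sum left out, the ratio was 0.34, 0.29 and 0.43 at 7 DAP and 0.02 at 6 DAP, so the opposite sign rests on 1 cell.

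The BETL9 share of the 4 genes was higher in MRP1-positive cells than in MRP1-negative cells carrying aleurone markers by 4.35, 5.03 and 0.816 percentage points in the libraries of 7 DAP, whereas it was lower at 6 DAP, by -9.80 percentage points. This difference was not tested either, and it rests on 16 BETL9 UMIs in the aleurone-marker cells of 6 DAP.

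Barcodes outside the cell filter also held BETL9. Their mean level at 7 DAP was 571 CPM (617, 541 and 556 in replicates 1, 2 and 3), above the 325 ± 27.1 CPM of the kept cells (SD, n = 3); at 6 DAP it was 210 CPM, below the 245 CPM of kept cells. Single barcodes carried much of it, with 215 of 730, 317 of 743 and 421 of 731 BETL9 UMIs in 1 barcode of each 7 DAP library. Without that barcode the levels were 441, 316 and 239 CPM. The barcodes so left out held 15033, 26159 and 20976 UMIs and 2125, 2953 and 2693 genes. They met the limits on genes and UMIs, and only the ratio of log genes to log UMIs excluded them.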

How the results depend on the processing

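Of 253 values recomputed under other settings, 196 were labelled unchanged, by a rule that depended on the kind of value. Tested fold changes had to keep their direction and side of the threshold, and counts of called genes had to stay near the main count. Co-detection at 6 DAP had to stay inside the exact interval of its library. The remaining values had to stay within the SD between the 7 DAP libraries. In the comparison of MRP1-positive with MRP1-negative cells all 4 members were called higher under every setting run, including no replicate block (3.88, 3.74, 4.28 and 3.98 for BETL9, BETL10, BETL3 and BAP2), where the block pairs the 2 sums of a library. The number of genes called higher, 5054, was 2099 on total UMIs and 378 with thinned cells, and the number called lower, 4992, was 10837, 696 and, with DESeq2, 3039. Within panel cells the counts moved more. The 896 genes called higher became 248 with DESeq2, 468 at a panel share of at least 10%, 60 with thinned cells and 501 to 848 with 1 library left out (501 without replicate 2, 572 without replicate 3). The 855 called lower became 137 with DESeq2, 509 without the replicate block, 1283 and 398 at a panel share of at least 2% and 10%, 35 with thinned cells and 403 to 841 with 1 library left out (403 without replicate 2, 497 without replicate 3). There BETL9 (0.29) and BETL10 (0.24) lost their calls without the replicate block, and at a panel share of at least 10% they came to -0.081 and 0.039; the cause was not tested. The log2 ratio of 7 DAP over 6 DAP in MRP1-positive cells became 0.77, 0.42, 0.83 and 0.16 with TMM factors for BETL9, BETL10, BETL3 and BAP2, and with thinned cells 0.29, 0.67 and -0.19 for BETL10, BETL3 and BAP2. For these thinned values MRP1 status was read after thinning, which left 95, 100 and 110 cells at 7 DAP and 88 at 6 DAP. The setting thus changed the cells as well as their depth. In panel cells the log2 ratio between ages was 0.71 for BETL3 and -0.16 for BAP2. BAP2 further gave -0.20 over all barcodes, -0.30 with at least 2 MRP1 UMIs and -0.16 in MRP1-positive panel cells, the last chosen after seeing the data. In all kept cells the same ratios for BETL9, BETL10, BETL3 and BAP2 were 0.56, 0.36, 0.98 and 0.11 with TMM factors, 0.041, -0.17, 0.42 and -0.44 with thinned cells, and 0.26, 0.014, 0.58 and -0.22 without the top 5% of cells by UMIs. The share differences between ages were, for BETL9, -0.13 percentage points as a mean within cells, 0.31 in panel cells and 0.50 in all kept cells. They were -1.70 for BETL10 in panel cells, and for BETL3 9.26 within cells, 11.3 in panel cells and 11.2 in all kept cells. All 4 genes together were found in 75.2% and 68.0% of MRP1-positive cells of 7 DAP and 6 DAP at their own depth and in 22.2% and 23.3% at 2 or more UMIs, and in 50.7% of panel cells of 7 DAP. Depth limits the 6 DAP values most: a level of 0.421 CPM over its kept cells corresponds to 3 UMIs, against 0.0848 to 0.117 CPM at 7 DAP.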
